A study of Caenorhabditis elegans with 16 samples.

Results

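Genes of the feeding pump of Caenorhabditis elegans, 7 in number, were followed through a series of RNA sequencing libraries. They were the myosin heavy chain genes myo-1, myo-2 and myo-5, the troponin genes tni-4, tnt-4 and tnc-2, and pha-4, which encodes a transcription factor. The members were chosen by gene name and made up 7 of the 46904 genes in each deposited table. All 7 were listed in every library. RNA came from whole worms of the strain N2, labelled wild type, which ate HT115, the Escherichia coli strain that delivers RNA interference (RNAi) with the food. The bacteria of the control worms carried an empty vector, and those of the other worms made dsRNA of atp-2, which codes for the catalytic beta subunit of ATP synthase in mitochondria. The study asked which neuronal genes matter for an aversive memory that stress brings about, and used atp-2 RNAi as the stress. There were 3 control and 2 atp-2 RNAi libraries at 0 hr and the same numbers at 20 hr. Each treatment had 1 library at 24 hr and 1 at 36 hr, and the last pair was a 48 hr control and a 54 hr atp-2 RNAi library, which makes 16 libraries. The labels give neither an age nor the event that the hours count from.

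The pharynx is the muscular tube with which the worm draws in and grinds bacteria. Its muscle cells build their sarcomeres from a set of myosin and troponin genes of their own, beside those of body wall muscle, the muscle of movement. Myosin heavy chains are the motors of the thick filament. Troponin C binds calcium, troponin I holds contraction back, and troponin T anchors the complex to tropomyosin. The product of pha-4 is a FoxA factor that specifies the cells of the pharynx in the embryo, and the gene is also active in intestine and other tissues. In RNA of whole worms, fewer pharyngeal cells and less RNA per cell cannot be told apart.

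Values were TPM, a length-corrected share of all transcripts in a library, so a level moves when transcripts of other tissues take a larger or smaller share. This unit leaves the sequencing depth unknown. The number of genes above 1 TPM ranged from 10619 to 13565 by library. The RNAi target atp-2 was lower after atp-2 RNAi by 4.01 at 0 hr (SE 0.14, limma adjusted p = 4.69e-07) and by 3.21 at 20 hr (SE 0.17, limma adjusted p = 2.11e-06) on the log2(TPM + 1) scale. A summed list of 10 germline and oocyte markers reached 2662 to 3272 TPM in the controls of 0 hr and 50.2 to 60.7 TPM after atp-2 RNAi. At 20 hr this sum was 3820 to 5965 TPM in controls and 95.04 to 177 TPM after atp-2 RNAi, while the control library of 24 hr held 29.5 TPM. No germline marker was at 0 throughout a group. The part of these transcripts in the results below was not tested. Whether replicates were separate cultures is not in the labels, and p-values reflect the spread among these libraries alone, perhaps a technical one.

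After atp-2 RNAi at 0 hr 4 members rose, namely myo-1, myo-2, tnt-4 and pha-4, while tni-4 fell and neither myo-5 nor tnc-2 passed the test. The 4 genes that rose stand against a background of 43.7% of the 14094 genes tested that were called higher, and the gene that fell against 39.6% called lower. At 20 hr, 5 members rose, 1 fell and 1 did not pass, with tnc-2 joining those that rose. There the background was 47.7% higher and 40.7% lower of 12916 genes. The number of members called lay near the background of 83.3% and 88.3% in either direction and is no result about the members. The median log2 change of the members was 1.43 at 0 hr and 1.93 at 20 hr, beside 0.13 and 0.31 over all genes tested. These medians include myo-1 and myo-2 at 0 hr and myo-2 at 20 hr, whose control means lay below the filter of 1 TPM, so that these genes entered the test through their atp-2 RNAi libraries. Changes are on the log2(TPM + 1) scale, which understates those of low genes, and were tested with limma and Benjamini-Hochberg adjustment over all genes at 0.05. Scaling libraries to body wall muscle markers moved the median of all genes to -0.65 at 0 hr and -2.53 at 20 hr. Under it, myo-1, myo-2, tnt-4 and tnc-2 turned lower at 20 hr, and at 0 hr tnt-4 missed the threshold (0.65, limma adjusted p = 0.0636). The scaling was applied after 1 TPM was added, so it pushes down genes near the floor in controls. For myo-1 and myo-2 at 20 hr the sign under it is therefore no result. Their deposited log2 ratios of mean TPM at 20 hr were 2.73 and 3.31. The median log2(TPM + 1) change of the body wall muscle markers there was 2.85.

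**Figure D1:**
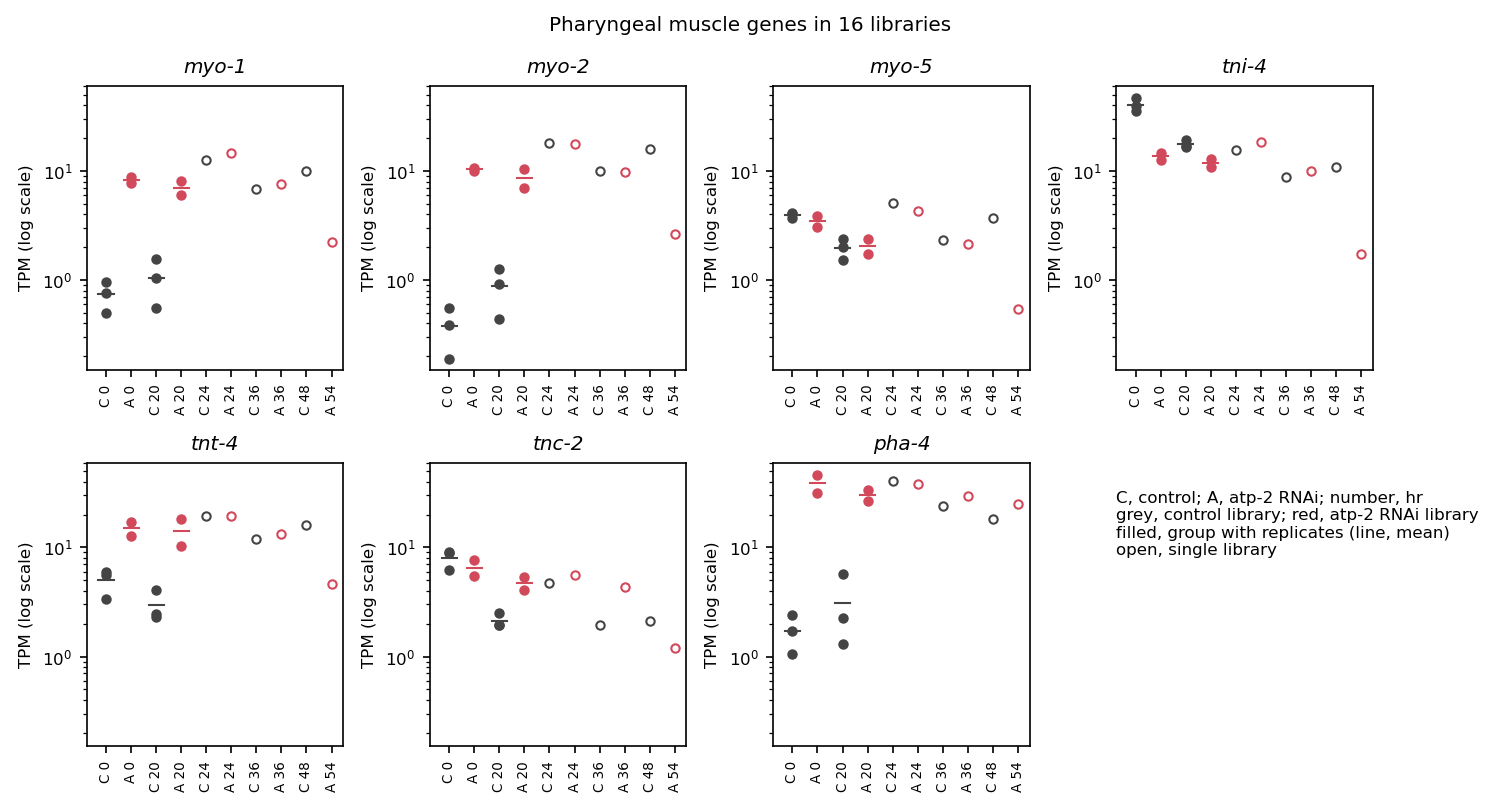
TPM of each gene (log axis) by library, for controls (grey) and atp-2 RNAi (red) at the hours given on the horizontal axis, with group means as lines and single libraries as open circles. In the controls of 0 hr and 20 hr, myo-2 lies at 0.189 to 1.26 TPM, while the control libraries of 24 hr, 36 hr and 48 hr hold 9.93 to 17.9 TPM.

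The pharyngeal myosin gene myo-2 (WBGene00003514, chromosome X, 12468061 to 12475348, plus strand, build WBcel235) encodes a heavy chain found in pharyngeal muscle alone. In the controls of 0 hr, replicates 1 to 3 held 0.189, 0.389 and 0.554 TPM of myo-2, and the atp-2 RNAi replicates 2 and 3 held 9.92 and 10.7 TPM. The 20 hr controls held 0.444, 1.26 and 0.921 TPM of myo-2, and the atp-2 RNAi libraries 6.99 and 10.3 TPM. The groups did not overlap at either time. On the log2 scale myo-2 rose by 3.05 at 0 hr (SE 0.20, limma adjusted p = 7.25e-06) and by 2.37 at 20 hr (SE 0.25, limma adjusted p = 5.48e-05). Scaling to body wall muscle markers gave -0.47 for myo-2 at 20 hr, a sign that is no result for a gene this near the floor in controls.

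The second pharyngeal heavy chain gene, myo-1 (WBGene00002348, chromosome I, 7258915 to 7267117, minus strand), followed the same course. Its control libraries of 0 hr held 0.499, 0.760 and 0.969 TPM and its atp-2 RNAi libraries 7.76 and 8.72 TPM. The 20 hr controls of myo-1 held 0.558, 1.56 and 1.04 TPM, and the atp-2 RNAi libraries 6.01 and 8.01 TPM. Each atp-2 RNAi library was above each control library at both times. The gene myo-1 rose by 2.41 at 0 hr (SE 0.20, limma adjusted p = 2.21e-05) and by 1.98 at 20 hr (SE 0.25, limma adjusted p = 1.38e-04). Scaling to body wall muscle markers gave -0.86 for myo-1 at 20 hr, a sign that is likewise no result near the floor.

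The third heavy chain gene, myo-5 (WBGene00019064, chromosome V, 8108970 to 8118131, plus strand), differed from both. Its controls of 0 hr held 3.72, 4.08 and 4.04 TPM, and its atp-2 RNAi libraries 3.86 and 3.05 TPM. At 20 hr the controls of myo-5 held 1.54, 2.38 and 2.02 TPM, and the atp-2 RNAi libraries 1.74 and 2.39 TPM. The groups overlapped at both times. The change of myo-5 was -0.16 at 0 hr (SE 0.19, limma adjusted p = 0.455) and 0.04 at 20 hr (SE 0.20, limma adjusted p = 0.853). These values rest on the scaling. Under quantile normalization myo-5 was lower at 0 hr (-0.57, limma adjusted p = 0.0226) and at 20 hr (-1.07, limma adjusted p = 0.00202), and under scaling to body wall muscle markers it was lower at both times (-0.93 and -2.80). By mean TPM, myo-5 was the highest of the 3 heavy chain genes in these controls and the lowest of them after atp-2 RNAi.

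Among the troponins, tnt-4 (WBGene00006589, chromosome V, 1989476 to 1992918, minus strand) encodes a pharyngeal troponin T. Its controls of 0 hr held 3.36, 5.98 and 5.61 TPM and its atp-2 RNAi libraries 12.7 and 17.1 TPM. The 20 hr controls of tnt-4 held 2.47, 4.06 and 2.29 TPM, and the atp-2 RNAi libraries 10.4 and 18.2 TPM. The groups did not overlap at either time. The gene tnt-4 rose by 1.43 at 0 hr (SE 0.26, limma adjusted p = 0.00116) and by 1.93 at 20 hr (SE 0.29, limma adjusted p = 3.79e-04), and at 20 hr scaling to body wall muscle markers turned it to -0.90.

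Troponin I of the pharynx, encoded by tni-4 (WBGene00006586, chromosome IV, 5204591 to 5207138, plus strand), moved the other way. Its controls of 0 hr held 35.2, 39.3 and 46.2 TPM, the highest levels of any member in that group, and its atp-2 RNAi libraries 14.6 and 12.7 TPM. At 20 hr the controls of tni-4 held 19.1, 16.7 and 16.9 TPM, and the atp-2 RNAi libraries 10.8 and 12.8 TPM. Every atp-2 RNAi library lay below every control library of its time. The gene tni-4 fell by 1.49 at 0 hr (SE 0.17, limma adjusted p = 8.67e-05) and by 0.54 at 20 hr (SE 0.16, limma adjusted p = 0.0152). The call at 20 hr was lost without the atp-2 RNAi replicate 2 (limma adjusted p = 0.0726) and without the control replicate 2 (limma adjusted p = 0.0512). Under scaling to body wall muscle markers the change of tni-4 at 20 hr was -3.37.

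The annotation bears on tni-4. A protein-coding gene on the opposite strand, Y59E9AL.36, shares 16 exonic bases with it. The strand setting of the authors' counting is not given in the sources used here, so reads of the overlap cannot be assigned with certainty. Y59E9AL.36 held 72.6 ± 11.7 TPM in the controls of 0 hr (SD, n = 3) and 13.8 ± 1.74 TPM after atp-2 RNAi (SD, n = 2). At 20 hr it held 102 ± 11.2 TPM in controls (SD, n = 3) and 12.5 ± 2.51 TPM after atp-2 RNAi (SD, n = 2). Like tni-4 it fell at both times, by 2.30 at 0 hr (limma adjusted p = 1.34e-05) and by 2.94 at 20 hr (limma adjusted p = 2.87e-06). Its part in the values of tni-4 was not tested.

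Troponin C of the pharynx is encoded by tnc-2 (WBGene00006583, chromosome II, 10466852 to 10468344, plus strand). Its controls of 0 hr held 6.26, 9.002 and 8.95 TPM and its atp-2 RNAi libraries 7.62 and 5.48 TPM, so that the groups overlapped. At 20 hr the controls of tnc-2 held 1.93, 2.48 and 1.94 TPM, and the atp-2 RNAi libraries 4.09 and 5.30 TPM, with no overlap. The change of tnc-2 was -0.26 at 0 hr (SE 0.23, limma adjusted p = 0.306). At 20 hr tnc-2 rose by 0.87 (SE 0.19, limma adjusted p = 0.00309), but the sign turned under quantile normalization (-0.29) and under scaling to body wall muscle markers (-1.97). The opposite-strand gene clec-143 shares 157 exonic bases with tnc-2 and held 1.09 TPM in controls and 3.73 TPM after atp-2 RNAi at 0 hr, and 0.303 and 3.17 TPM at 20 hr. Its part in the values of tnc-2 was not tested.

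The organ identity gene pha-4 (WBGene00004013, chromosome V, 20752883 to 20760317, plus strand) had the largest change of the members at both times on the log2(TPM + 1) scale. With a pseudocount of 0.1 in place of 1, myo-2 exceeded it at 0 hr (4.52 against 4.46). The log2 ratios that the authors deposited put myo-2 above pha-4 at 0 hr (4.77 against 4.49) and at 20 hr (3.31 against 3.28). The controls of 0 hr held 1.05, 1.72 and 2.38 TPM of pha-4, and the atp-2 RNAi libraries 46.0 and 31.4 TPM. At 20 hr the controls of pha-4 held 1.31, 2.24 and 5.72 TPM, and the atp-2 RNAi libraries 26.7 and 33.4 TPM. The groups were far apart at both times, although the control replicate 3 of 20 hr stood above the other two. The gene pha-4 rose by 3.87 at 0 hr (SE 0.27, limma adjusted p = 8.97e-06) and by 3.06 at 20 hr (SE 0.41, limma adjusted p = 2.04e-04). Under scaling to body wall muscle markers its change at 20 hr was 0.23 and did not pass.

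**Figure D2:**
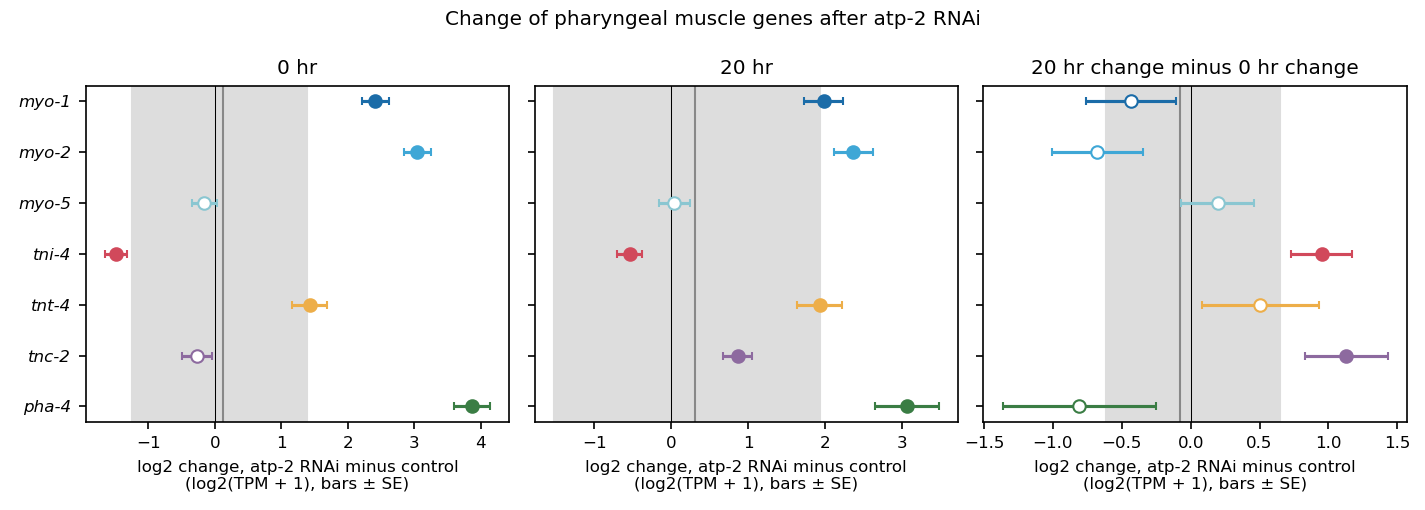
Log2 change with its SE for each gene at 0 hr, at 20 hr, and the difference between both changes, on the log2(TPM + 1) scale; filled points passed the limma test, the grey band spans the middle 50% of all genes tested and the grey line is their median. At 0 hr pha-4 (3.87), myo-2 (3.05), myo-1 (2.41) and tnt-4 (1.43) lie above the band and tni-4 (-1.49) below it. With libraries scaled to body wall muscle markers, myo-1, myo-2, tnt-4 and tnc-2 turn negative at 20 hr. For myo-1 and myo-2, near the floor in controls, this sign is no result.

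The difference between the changes at 0 hr and 20 hr was tested as an interaction over 10 libraries. It passed for 2 of the 7 members, both troponins, beside a background of 43.0% of 13679 genes in either direction, 21.1% higher at 20 hr and 21.9% lower. For tnc-2 the change at 20 hr exceeded that at 0 hr by 1.13 (SE 0.30, limma adjusted p = 0.0149), and for tni-4 by 0.95 (SE 0.22, limma adjusted p = 0.00868). Both genes had lower control levels at 20 hr than at 0 hr, with tnc-2 at a mean of 8.07 TPM and then 2.12 TPM, and tni-4 at 40.2 TPM and then 17.6 TPM. The levels of the 2 times come from separately made tables. Under scaling to body wall muscle markers both differences were negative, -0.93 for tnc-2 and -1.11 for tni-4, and the call of tnc-2 was lost without the atp-2 RNAi replicate 3 of 0 hr (limma adjusted p = 0.0639), with no filter on low values (limma adjusted p = 0.0619) and under quantile normalization (0.46, limma adjusted p = 0.174). For the other 5 members the difference did not pass, with values from -0.81 for pha-4 to 0.51 for tnt-4.

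Within a library, the order of the members does not depend on how large a share the transcripts of other tissues take. Each level still counts RNA from all tissues of the worm, and pha-4 is also active outside the pharynx. In the controls of 0 hr the order of mean TPM was tni-4, tnc-2, tnt-4, myo-5, pha-4, myo-1 and myo-2, in which the ranges of tnt-4 and myo-5 overlapped, as did those of myo-1 and myo-2. After atp-2 RNAi at 0 hr it was pha-4, tnt-4, tni-4, myo-2, myo-1, tnc-2 and myo-5, with the ranges of tnt-4 and tni-4 overlapping. In the controls of 20 hr tni-4 was again first and myo-2 last, and the ranges of neighbours overlapped from pha-4 down to myo-2. After atp-2 RNAi at 20 hr the order was that of atp-2 RNAi at 0 hr, with overlap of tnt-4 with tni-4 and of myo-2 with myo-1. In each single library of 24 hr and later pha-4 was first and tnt-4 second, under control and atp-2 RNAi alike.

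Of 6 ratios computed between members, 4 separated the controls of 0 hr and 20 hr from the remaining 10 libraries, and 2 did not. The share of other gene pairs that would separate them was not computed. Of all genes tested, 83.3% were called at 0 hr and 88.3% at 20 hr, so the count is no result about the members. In these controls myo-2 held 0.189 to 1.26 TPM, so ratios over myo-2 rest there on values near the floor. The TPM ratio of troponin I to troponin T, tni-4 over tnt-4, was 6.58 to 10.5 in the controls of 0 hr and 4.11 to 7.72 in those of 20 hr. In the other libraries, among them the controls of 24 hr, 36 hr and 48 hr, it was 0.377 to 1.15. The ratio of the heavy chain genes myo-5 over myo-2 was 7.29 to 19.7 and 1.90 to 3.47 in the same controls, and 0.208 to 0.389 elsewhere. The ratio of myo-1 over myo-2 was 1.75 to 2.64 and 1.13 to 1.26 in these controls, so myo-1 was above myo-2, and 0.621 to 0.860 elsewhere, with the order turned round. For tnc-2 over tnt-4 the controls of 0 hr held 1.51 to 1.86 and those of 20 hr 0.610 to 0.850, against 0.130 to 0.600 elsewhere. For tni-4 over tnc-2 the controls of 0 hr held 4.37 to 5.62 and those of 20 hr 6.73 to 9.85, but the others, at 1.45 to 5.20, overlapped with those of 0 hr. The ratio of pha-4 over myo-2 was 4.30 to 5.57 and 1.78 to 6.21 in these controls and 1.13 to 9.53 elsewhere, also with overlap. With 2 libraries against 3, an exact two-sided permutation test cannot give a p below 0.2, which was its value at both times for each ratio but pha-4 over myo-2 (0.6 at 0 hr and 0.8 at 20 hr). These ratios do not change with any scaling of whole libraries.

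**Figure D3:**
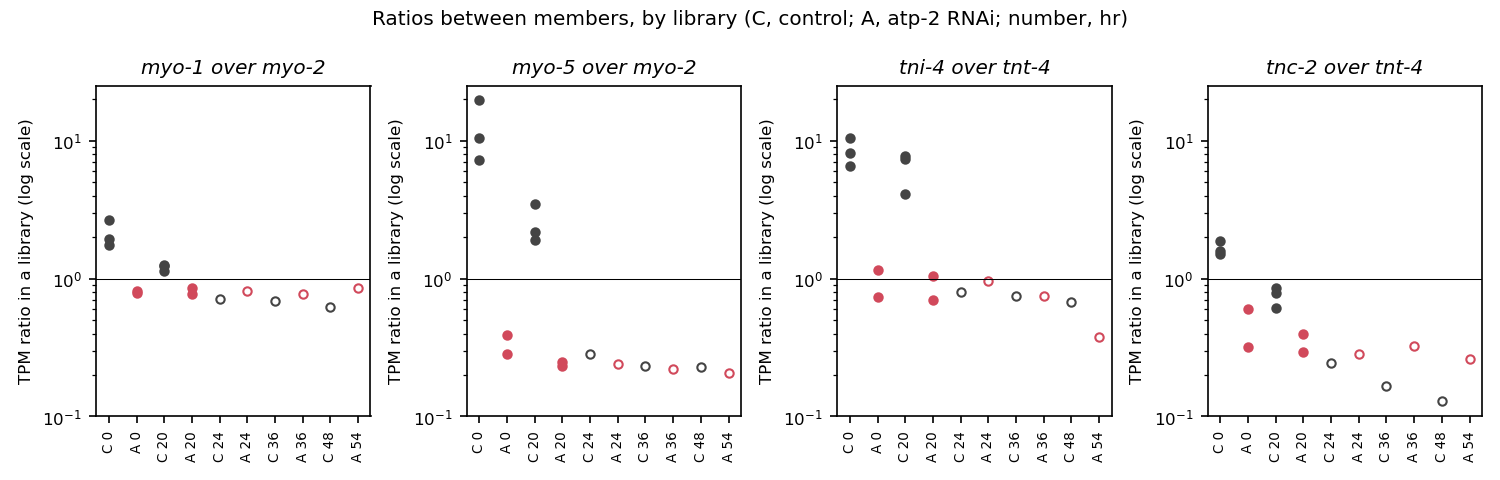
TPM ratio of pairs of members (log axis) in each library, for controls (grey) and atp-2 RNAi (red) at the hours given. The panels show the 4 ratios of 6 that separated the controls of 0 hr and 20 hr from all other libraries. For tni-4 over tnt-4 these controls hold 4.11 to 10.5 and the others 0.377 to 1.15. The share of other gene pairs that would separate them was not computed.

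The single-library pairs have no replicates, and no test was made. At 24 hr and at 36 hr none of the 7 members differed by 2-fold on TPM + 1, beside a background of 10.5% of 12548 genes at 24 hr (6.41% higher, 4.1% lower) and 13.1% of 12416 genes at 36 hr (7.57% higher, 5.56% lower). At 24 hr the control and atp-2 RNAi libraries held 17.9 and 17.8 TPM of myo-2, 12.7 and 14.6 TPM of myo-1 and 5.09 and 4.28 TPM of myo-5. They held 15.5 and 18.6 TPM of tni-4, 19.3 and 19.4 TPM of tnt-4, 4.68 and 5.53 TPM of tnc-2 and 40.8 and 37.9 TPM of pha-4. The log2 ratios of the members at 24 hr thus lay between -0.20 and 0.25. At 36 hr the pair held 9.93 and 9.69 TPM of myo-2, 6.78 and 7.54 TPM of myo-1 and 2.31 and 2.14 TPM of myo-5. It held 8.86 and 9.89 TPM of tni-4, 11.8 and 13.3 TPM of tnt-4, and 24.2 and 29.5 TPM of pha-4. The member furthest apart at 36 hr was tnc-2, with 1.96 TPM in the control and 4.32 TPM after atp-2 RNAi, a log2 ratio of 0.85.

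At the last pair, 54 hr of atp-2 RNAi against 48 hr of control, 5 of the 7 members were at least 2-fold lower on TPM + 1, beside a background of 14.9% of 13473 genes lower (32.7% in either direction, 17.8% higher). The control held 16.04 TPM of myo-2 and 9.96 TPM of myo-1, and the atp-2 RNAi library 2.62 and 2.25 TPM. For myo-5 the pair held 3.70 and 0.546 TPM, for tni-4 10.9 and 1.73 TPM, and for tnt-4 16.1 and 4.58 TPM. All 3 heavy chain genes, troponin I and troponin T were thus lower, while tnc-2 held 2.10 and 1.19 TPM (log2 ratio -0.50) and pha-4 held 18.2 and 24.96 TPM (log2 ratio 0.44). The median log2 ratio of the members was -1.62, beside 0.17 over all genes. None of 14 body wall muscle markers was 2-fold apart in this pair, with a median of -0.49. Of 10 sarcomere genes that pharynx and body wall share, 1 was 2-fold lower, the actin gene act-2 at 1268 TPM in the control and 462 TPM after atp-2 RNAi. Other lists moved in this pair as well. All 10 germline and oocyte markers were at least 2-fold lower (median -3.01), and 6 of 10 neuron markers were at least 2-fold higher (median 1.03). Among the other pharyngeal lists, 1 of 4 regulators was 2-fold higher and none lower (median 0.51). For the excitability genes, 1 of 8 was 2-fold higher and none lower (median 0.60). Of 2 gland genes that passed the filter, 1 was 2-fold higher and 1 was 2-fold lower (median -0.42). The times of this pair are unequal, so treatment and hour cannot be told apart.

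**Figure D4:**
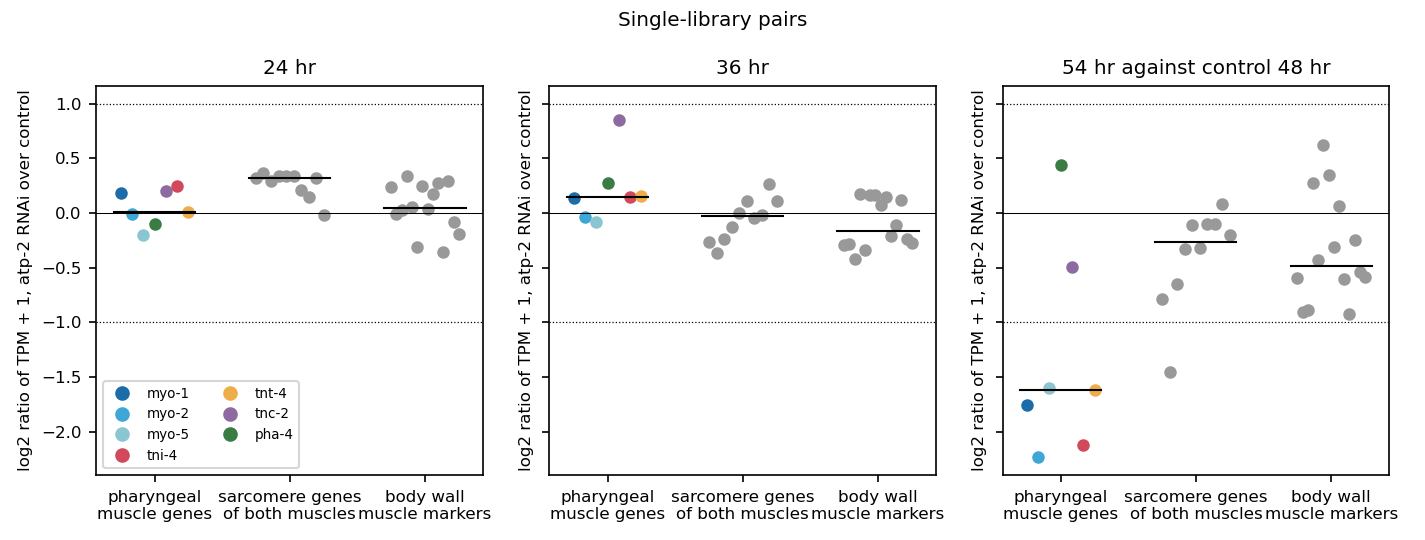
Log2 ratio of TPM + 1, atp-2 RNAi over control, in the 3 single-library pairs, for the pharyngeal muscle genes (coloured), sarcomere genes of both muscles and body wall muscle markers (grey), with medians as black lines and 2-fold as dotted lines. In the pair of 54 hr against 48 hr, 5 pharyngeal muscle genes lie below the lower dotted line, and the medians are -1.62, -0.26 and -0.49.

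Across the 16 libraries the highest level of myo-2 was 94.7 times its lowest, of pha-4 43.7 times, of myo-1 29.1 times, of tni-4 26.8 times, of myo-5 9.31 times, of tnt-4 8.47 times and of tnc-2 7.55 times. The lowest values of myo-1, myo-2 and pha-4 were in control replicate 1 of 0 hr. Those of myo-5, tni-4 and tnc-2 were in the atp-2 RNAi library of 54 hr, and that of tnt-4 in control replicate 3 of 20 hr. Set side by side and with no test, since the tables were made separately, mean levels after atp-2 RNAi at 0 hr and 20 hr were between 0.406 and 1.60 times those of the control libraries of 24 hr and 36 hr. The exception was tnc-2 against the control of 36 hr, at 3.34 and 2.40 times.

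On the log2(TPM + 1) scale over 16 libraries, the members were grouped by how alike their levels varied. Pearson's r was 0.996 between myo-1 and myo-2, 0.946 between myo-1 and tnt-4, and 0.926 between myo-2 and pha-4. In the other set it was 0.716 between myo-5 and tnc-2 and 0.708 between myo-5 and tni-4. Between the sets r ran from -0.62 for tni-4 and pha-4 to 0.42 for myo-5 and tnt-4. By Spearman's rho, myo-5 was as close to tnt-4 (0.518) as to tni-4 (0.518), so the sets are not sharply bounded. These are descriptions, since the libraries share treatments and hours and fall into separate groups. Although all 7 genes carry the name of pharyngeal muscle, they did not share one course of levels in these whole-worm libraries.

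**Figure D5:**
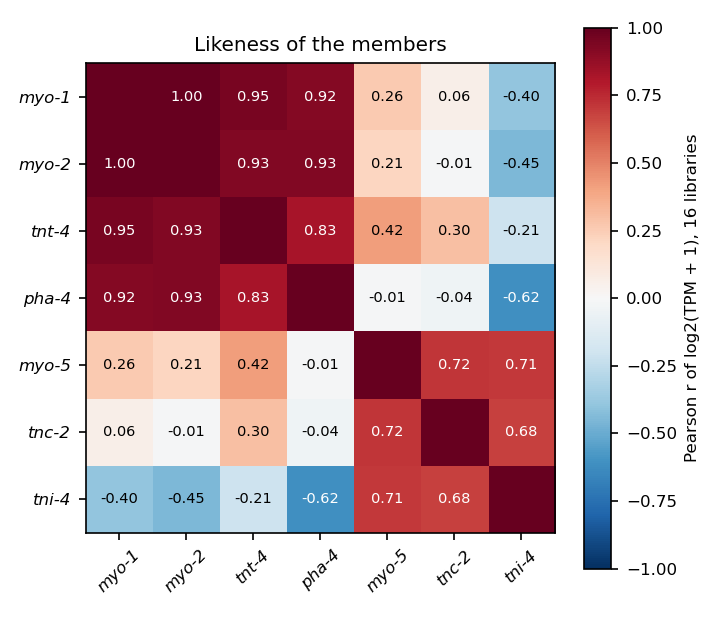
Pearson's r of log2(TPM + 1) over 16 libraries for each pair of members, from blue (-1) to red (1). The genes myo-1, myo-2, tnt-4 and pha-4 have values of 0.826 to 0.996 with one another, and myo-5, tnc-2 and tni-4 have 0.684 to 0.716.

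The genes most like the mean of the 7 members, out of 13743 other genes whose mean in the 16 libraries was 1 TPM or more, were C32C4.1 (r = 0.937), C25G6.3 (r = 0.930), F54E4.4 (r = 0.928), clik-2 (r = 0.926), aex-6 (r = 0.918) and T14G8.4 (r = 0.911). By Spearman's rho, 4 of these 6 were again among the 6 most alike. The levels of C32C4.1, C25G6.3, F54E4.4 and T14G8.4 were near the filter, with means of 1.76, 1.07, 1.06 and 1.43 TPM over the 16 libraries. Their means in the controls of 0 hr and 20 hr lay below 1 TPM, so they passed the filter through other libraries. The gene aex-6 encodes a Rab27 GTPase that acts in secretion. It had a mean of 8.67 TPM in the controls of 0 hr and 21.99 TPM after atp-2 RNAi. Among the members themselves, tnt-4 had an r of 0.972 with the mean of the 7 members and tni-4 one of -0.12.

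Other genes of the pharynx were taken from lists written by name. Their levels count RNA from all tissues of the worm, so a change in these lists cannot be assigned to the pharynx. The counts of this and the following lists stand beside the same background, 43.7% higher and 39.6% lower at 0 hr and 47.7% and 40.7% at 20 hr, and a share near it is no result about a list. Counts under scaling to body wall muscle markers have another background, 3224 higher and 6823 lower of 14094 genes at 0 hr. At 20 hr it is 721 higher and 10238 lower of 12916 genes, so that most genes fell under this scaling. Of 8 regulators of pharyngeal development, 4 were tested at 0 hr and 3 rose, and at 20 hr 4 of 5 tested rose and 1 fell, though under scaling to body wall muscle markers 0 rose and 4 fell at 20 hr. The gene peb-1, which encodes a DNA-binding protein of the pharynx, held 0.960 ± 0.216 TPM in the controls of 0 hr (SD, n = 3) and 56.7 ± 0.0329 TPM after atp-2 RNAi (SD, n = 2). It rose by 4.89 at 0 hr (SE 0.18, limma adjusted p = 6.34e-07) and by 3.46 at 20 hr (SE 0.26, limma adjusted p = 9.02e-06). Its control mean of 0 hr lay below the filter of 1 TPM, so that peb-1 entered the test at 0 hr, and the count of regulators that rose, through its atp-2 RNAi libraries. In the single pairs peb-1 was also at least 2-fold higher each time, with 4.45 TPM in the control of 48 hr and 50.4 TPM after atp-2 RNAi at 54 hr. The gene pha-1 rose by 1.58 at 0 hr (limma adjusted p = 7.16e-05), and the T-box factor gene tbx-2 by 1.54 at 20 hr (limma adjusted p = 1.69e-04), or -1.30 when scaled to body wall muscle markers. The homeobox gene ceh-22, a regulator of myo-2 in the pharynx, did not pass the filter on low values, with 0.177 TPM in the controls of 0 hr and 0.456 TPM after atp-2 RNAi.

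Of 11 genes that set the excitability of pharyngeal muscle, 8 were tested at each time. At 0 hr 5 rose and 1 fell, and at 20 hr 7 rose and none fell, with median log2 changes of 1.11 and 1.72. Under scaling to body wall muscle markers 2 rose and 1 fell at 0 hr, and 0 rose and 6 fell at 20 hr. There the changes of exp-2 and gar-3 turned to -0.20 and -0.53. This scaling pushes down genes near the floor in controls, so the sign of exp-2 and gar-3 under it is no result. The potassium channel gene exp-2, which ends the pharyngeal action potential, rose from 2.32 ± 0.586 TPM (SD, n = 3) to 13.8 ± 0.127 TPM (SD, n = 2) at 0 hr, by 2.17 on the log2 scale (limma adjusted p = 4.25e-05). At 20 hr exp-2 rose by 2.64 (limma adjusted p = 4.13e-06), and there exp-2 and gar-3, with control means of 0.553 and 0.542 TPM, passed the filter through their atp-2 RNAi libraries. The muscarinic acetylcholine receptor gene gar-3 rose by 1.65 at 0 hr (limma adjusted p = 1.22e-04) and by 2.30 at 20 hr (limma adjusted p = 1.22e-05). Of 7 gland genes, 2 were tested at 0 hr and 1 at 20 hr, and phat-3, one of a family expressed in the glands, rose at both times (1.12 and 0.96), but its change at 20 hr turned negative under quantile normalization (-0.23) and scaling to body wall muscle markers (-1.88).

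Genes of body wall muscle were set beside the members. Of 10 counterparts there, 5 rose and 1 fell at 0 hr, near the background of 43.7% higher, with a median of 1.24, and 10 of 10 rose at 20 hr, with a median of 3.17. The difference between both changes passed for 8 of the 10, each higher at 20 hr, beside a background of 21.1% higher of 13679 genes. Its median was 1.98, beside 0.20 for the pharyngeal members and -0.08 over all genes tested. The heavy chain gene unc-54 rose by 2.54 at 0 hr (limma adjusted p = 9.77e-05) and by 5.004 at 20 hr (limma adjusted p = 1.33e-05). The heavy chain gene myo-3 rose by 2.83 (limma adjusted p = 7.11e-05) and by 4.70 (limma adjusted p = 5.53e-06). The troponin T gene tnt-3 rose by 2.74 at 0 hr (limma adjusted p = 3.35e-06). A further troponin I gene, tni-3, fell at 0 hr as tni-4 did (-1.63, limma adjusted p = 7.42e-05), and was named after its values were seen. Unlike tni-4 it rose at 20 hr (1.82, limma adjusted p = 2.19e-05), with -1.02 under scaling to body wall muscle markers. Of the 10 sarcomere genes shared by both muscles, 5 rose and 1 fell at 0 hr, and 9 rose and 1 fell at 20 hr. Scaled to body wall muscle markers, 4 of the 10 counterparts rose and 4 fell at 0 hr, and 3 rose and 3 fell at 20 hr. Since 6 of the counterparts are themselves among these markers, the scaling centres them and their balance is no result. Of the shared genes, 1 rose and 3 fell at 20 hr under that scaling. The paramyosin gene unc-15 rose by 2.29 at 0 hr (limma adjusted p = 3.01e-04) and by 4.36 at 20 hr (limma adjusted p = 8.1e-05), and the actin gene act-4 by 3.23 at 20 hr (limma adjusted p = 5.53e-04). The actin gene act-2 fell by 1.93 at 0 hr (limma adjusted p = 5.9e-05).

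Markers of other tissues moved as well, and their part in the values of the members was not tested. Of 14 body wall muscle markers, 7 rose at 0 hr and 14 at 20 hr, and their summed level was 3348 to 5574 TPM in controls and 4237 to 5569 TPM after atp-2 RNAi at 0 hr. The sum at 20 hr was 791 to 834 TPM in controls and 4115 to 4454 TPM after atp-2 RNAi. Of 8 intestine markers tested, 5 rose at 0 hr and 7 at 20 hr, led by the protease gene cpr-1 (1.61) and the esterase gene ges-1 (1.51) at 0 hr and by the intermediate filament gene ifb-2 (2.91) and the protease gene asp-1 (2.74) at 20 hr. With scaling to body wall muscle markers no intestine marker rose and 5 fell at 20 hr, and asp-1 stood at -0.10. Of 10 neuron markers, 9 and then 8 rose, or 8 and then 2 under that scaling, led both times by ida-1, a gene of dense-core vesicles (3.72 and 5.19), and the proprotein convertase gene egl-3 (2.73 and 4.26). Of the epidermis markers, 6 of 9 tested rose and 2 fell at 0 hr, and 8 of 10 rose and 2 fell at 20 hr. The adult collagen gene col-19 fell by 10.17 at 0 hr, while the collagen gene rol-6 rose by 8.40 at 0 hr and 8.72 at 20 hr. The collagen gene dpy-13 rose by 10.07 at 20 hr. Together the 10 epidermis markers held 1520 to 4564 TPM after atp-2 RNAi at 20 hr. A rise of 10.07 within that sum puts dpy-13 near the floor in the controls of 20 hr. There dpy-13 passed the filter, and entered the count of 8, through its atp-2 RNAi libraries. All 10 germline and oocyte markers fell at both times, led by puf-5 (-7.99 and -8.55) and the yolk receptor gene rme-2 (-7.98 and -8.12).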

How the data were processed

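Whole-worm RNA was isolated with GENEzol, and a SureSelect kit that keeps the strand gave the libraries, per the labels' protocols. The submitters' processing notes name bcl2fastq 2.20, TopHat, Cufflinks and the build WBcel235. For other versions, the annotation release and strand use in counting, the entry is: not given in the sources used here. Each library has a TPM column in the tables the authors deposited, per the file headers, where 0.0001 stands for no signal and was read as 0. A log2 ratio per gene, a p-value and a q-value also come from the authors, per the file headers. These were used only to count the authors' own calls, given with the alternatives below, and to set myo-2 beside pha-4. The log2 ratios of myo-1 and myo-2 were also set beside the body wall muscle markers. Coordinates are those of the deposited tables. Overlaps were read from the Ensembl 115 annotation of WBcel235.

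At 0 hr and 20 hr, limma 3.58.1 in R 4.3.3 was fitted to log2(TPM + 1) with an intensity trend, on genes averaging 1 TPM or more, adjusted by Benjamini-Hochberg over all of them at 0.05. The interaction used all 10 libraries. Samples were not paired. The fit was tried on simulated data with independent noise and few changed genes. With most genes called here, this does not show how it performs on these data. For single-library pairs, 2-fold differences were counted without a test. Counts and figures came from Python 3.11.15 with pandas 2.3.3, numpy 2.4.6, matplotlib 3.10.9 and scipy 1.17.1. The members and lists were chosen with earlier results of these data known. Of 10 further lists, 1 intestine marker, opt-2, was not matched. Genes named were the members, the 2 largest changes past the threshold in each list and time, the 6 genes most like the members, and atp-2. The genes ceh-22, tni-3, Y59E9AL.36 and clec-143 fall outside this rule and were picked with their values in view. The alternatives tried were a pseudocount of 0.1, no filter, a minimum mean of 5 TPM, a shift to the same median, quantile normalization, scaling to body wall muscle markers, the replicate number as a block, a fold of 1.5 and leaving out each library.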

Additional observations from a re-analysis of the deposited data

Results flagged for a closer look

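The change of tnc-2 after atp-2 RNAi at 20 hr differed from that at 0 hr by 1.13 on the log2 scale, by the limma interaction test. The change of tni-4 differed between the times by 0.95, by the same test. Both values were higher at 20 hr, beside a background of 43.0% of 13679 genes in either direction. Under scaling to body wall muscle markers both turned negative. Both genes overlap a gene on the opposite strand. The same difference was -0.64 for Y59E9AL.36 (limma adjusted p = 0.0611), which overlaps tni-4. For clec-143, which overlaps tnc-2, it was 0.48 (limma adjusted p = 0.240), and neither passed. The part of these genes in the flagged values was not tested.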

How the results depend on the processing

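Same-numbered libraries did not deviate together (r from -0.072 to 0.028 across genes). With 2 atp-2 RNAi libraries at each time, their deviations mirror each other, so this check is weak and cannot settle whether libraries were paired. The labels state no pairing, and the numbers were not taken to pair the libraries. With a replicate block, 0 members were lower at 20 hr, tni-4 having missed the threshold (-0.48, limma adjusted p = 0.0799), and myo-5 stood at -0.069. A mean of at least 5 TPM left 4 members tested at 0 hr, 3 of them called (2 higher), and 3 at 20 hr, 3 called (2 higher). With no filter, the difference between the times passed for 1 member, tni-4, higher. A shift to the same median gave 1 member with a lower difference, and myo-5 at -0.076 at 20 hr. Quantile normalization gave 3 members lower at 0 hr, 2 lower at 20 hr, and 4 differences (1 higher, 3 lower). It turned myo-5 (-1.07) and tnc-2 (-0.29) at 20 hr, and the differences of myo-5 (-0.54) and tnt-4 (-0.068). Scaling to body wall muscle markers gave 3 members lower at 0 hr, 0 higher and 5 lower at 20 hr, and 6 differences, 0 higher and 6 lower. It turned myo-1 (-0.86), myo-2 (-0.47), myo-5 (-2.80), tnt-4 (-0.90) and tnc-2 (-1.97) at 20 hr, and the differences of myo-5 (-1.86), tni-4 (-1.11), tnt-4 (-1.55) and tnc-2 (-0.93). Because it followed the added 1 TPM, the signs of myo-1 and myo-2, near the floor in controls, are no result. At 36 hr, a pseudocount of 0.1 and a fold of 1.5 each put 1 member, tnc-2, past the fold. The causes were not tested. Leaving out a library gave 0 to 1 members lower at 20 hr, 1 to 2 differences, and -0.11 to 0.20 for myo-5 at 20 hr. Over all members, leaving out a library kept direction and call in 135 values, lost the call in 3 and turned the sign in 2. The authors' deposited table marks 5 members at 0 hr, 6 at 20 hr and 0 in each single pair. The share of all genes that the authors marked was not computed, so these counts are no result about the members. Over all genes, scaling to body wall muscle markers gave 3224 higher and 6823 lower at 0 hr, and 721 higher and 10238 lower at 20 hr. For the difference it gave 389 higher and 11661 lower. A mean of at least 5 TPM gave 4239 higher and 4519 lower of 10535 genes at 0 hr, and 3925 and 4816 of 9874 at 20 hr. Quantile normalization gave 6014 higher and 5541 lower of 14094 at 0 hr, and 5538 and 5228 of 12916 at 20 hr. Its differences were 2185 higher and 2560 lower of 13679. With no filter, 2214 differences were higher and 1427 lower. A shift to the same median split the calls into 5711 higher and 5856 lower at 0 hr, 5956 and 5463 at 20 hr, and 2420 and 4207 for the difference.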
